A study of Mus musculus with 2 samples.

Results

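The cells described here are barcodes of mouse bone marrow in which transcripts of Hlf and Mecom were captured together. Both genes encode transcription factors known from hematopoietic stem cells (HSCs). Single-cell 3′ RNA sequencing in droplets gave 1 library of control mice (Ctrl) and 1 of Map4k4-cKO mice (cKO). A barcode was chosen when it held at least 1 unique molecular identifier (UMI, the tag of 1 captured RNA molecule) of Hlf and at least 1 of Mecom, and when the neutrophil granule genes Elane, Prtn3, Mpo and Ctsg together gave less than 0.5% of its UMIs. The rule was applied to barcodes with 200 to 9000 detected genes, at most 30% mitochondrial UMIs and at least 2000 UMIs, called kept barcodes below. Of 11761 kept barcodes, 176 were Hlf and Mecom positive, 128 of 7252 in the Ctrl library and 48 of 4509 in the cKO library. Because these barcodes were chosen on measured UMIs, their difference from other barcodes is given as a description, with no test.

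Both libraries came from mice 13 to 14 weeks old. From each genotype, c-Kit+ hematopoietic stem and progenitor cells (HSPCs), enriched with magnetic beads, were mixed at 2 parts to 3 parts with bone marrow freed of red cells by lysis. The cKO mice carried Mx1-Cre and floxed Map4k4 alleles (Map4k4 f/f) on a C57BL/6 background and had received poly I:C weeks earlier. Control mice were littermates that also carried Mx1-Cre, and their Map4k4 genotype is written as Map4k4 -/- in the methods and as control in the labels. The sources used here give neither the poly I:C treatment of the controls nor the number of mice per library. Mx1-Cre is switched on by interferon in many cell types, so the design does not restrict the deletion to stem cells. The extent of the deletion was not measured here. With 1 library per genotype, differences between the libraries cannot be set against replicates, and p-values are left out.

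In Ctrl 71527701 UMIs were spread over 10220 barcodes, and in cKO 64393950 UMIs over 6872 barcodes. The Hlf and Mecom positive barcodes together held 1644170 UMIs in Ctrl and 711533 UMIs in cKO. Their median depth was 10032 UMIs (2130 to 66311) in Ctrl and 12849 UMIs (2990 to 53094) in cKO, against 6400 and 10560 UMIs in the other kept barcodes. Levels are counts per 1000000 UMIs (CPM), summed over all barcodes of a set in 1 library, and ratios between sets are on the log2 scale of CPM. Intervals are exact 95% intervals and cover counting error only, and cells or mice vary by more than that. The libraries shared 3010 barcode names, of which 2259 were kept in both, and no name was Hlf and Mecom positive in both. Of the Hlf and Mecom positive barcodes, 57 in Ctrl and 26 in cKO had the name of a kept barcode of the other library. The median correlation of the expression profiles of same-named kept barcodes was 0.478, against 0.481 when names were shifted by 1, so shared names did not hold more similar profiles.

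HSCs sit at the top of blood formation in the bone marrow, divide rarely and give rise to all blood lineages. They are held in this state by transcription factors such as HLF, MECOM, MEIS1, ERG and GATA2, and by signals such as stem cell factor through KIT. The multipotent progenitors that follow gain FLT3, the receptor for FLT3 ligand, and later lymphoid or myeloid transcripts. MAP4K4 is a serine/threonine kinase of the MAP4K family, which acts upstream of stress kinase pathways.

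Map4k4 was the target of the deletion. The gene lies on chromosome 1 from 39900913 to 40026310 on the plus strand of GRCm38. In the Hlf and Mecom positive barcodes its level was 127 CPM in Ctrl (209 UMIs) and 142 CPM in cKO (101 UMIs), a log2 ratio (cKO over Ctrl) of 0.16 (-0.20 to 0.51). At least 1 Map4k4 UMI was present in 71.1% of them in Ctrl and in 83.3% in cKO. In the other kept barcodes the level was 68.9 CPM in Ctrl and 62.7 CPM in cKO, a log2 ratio of -0.14. The interval for the Hlf and Mecom positive barcodes includes 0. The deleted exons are not given in the sources used here, and a transcript that has lost internal exons can still be counted at its 3′ end, so these counts do not check the deletion. By RT-PCR, the paper reports that HSPCs lost the Map4k4 transcript after poly I:C.

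The remaining markers of the set were present in most of its barcodes, as the plot of marker detection shows. Meis1, a homeobox transcription factor, was detected in 89.8% (83.3 to 94.5) of the Ctrl barcodes and 91.7% (80.0 to 97.7) of the cKO barcodes. Angpt1, a ligand of the TIE2 receptor, was detected in 92.2% (86.1 to 96.2) and 97.9% (88.9 to 99.9). Adgrl4, an adhesion G protein-coupled receptor, was detected in 91.4% (85.1 to 95.6) and 91.7% (80.0 to 97.7). All of Meis1, Angpt1 and Adgrl4 were present in 100 of 128 Ctrl barcodes and 39 of 48 cKO barcodes, and no barcode lacked all of them. In mature neutrophils, which were taken as the background of free RNA (kept barcodes with at least 10 Retnlg UMIs and no Kit UMI), the same genes were detected in 1.12% to 2.44% of barcodes in Ctrl and in 0.143% to 1.15% in cKO, at median depths of 3413 and 7662 UMIs. After every barcode was thinned to 2000 UMIs, Meis1 was expected in 42.7% of the Hlf and Mecom positive barcodes in Ctrl and 39.3% in cKO, against 0.54% and 0.11% of the neutrophils. The markers given for this cell type thus set these barcodes apart from the mature neutrophils in both libraries.

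**Figure D1:**
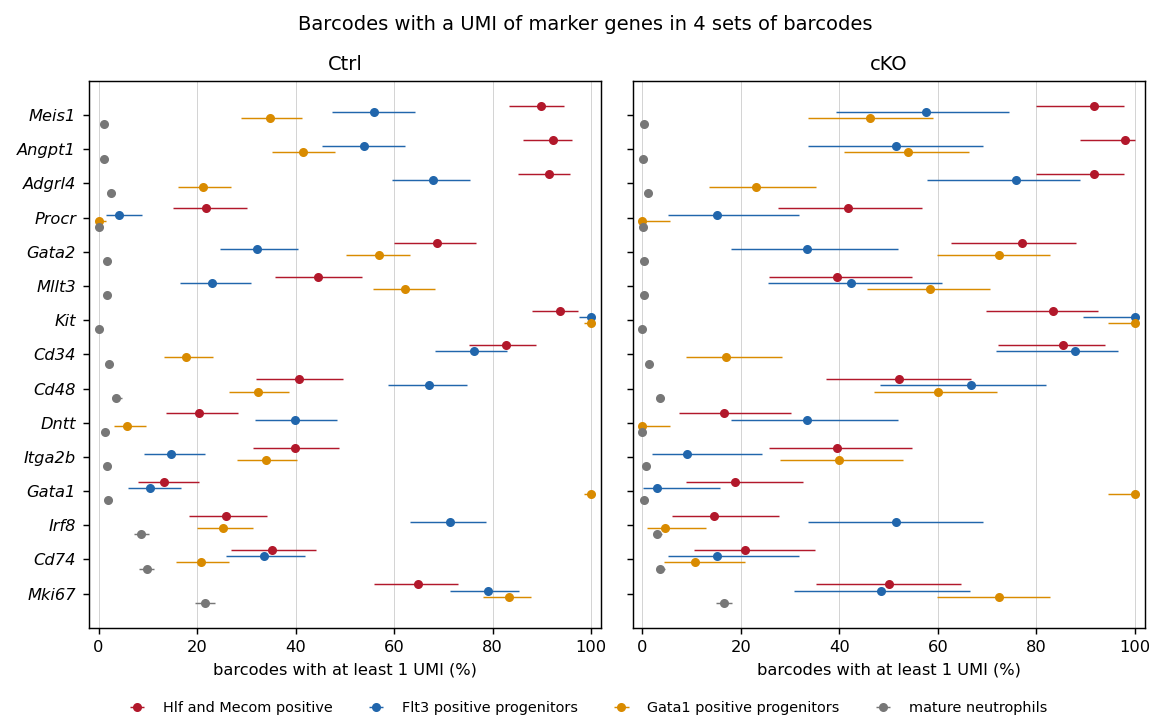
Percentage of barcodes with at least 1 UMI (x axis) of 15 marker genes (y axis) in Ctrl (left) and cKO (right), with exact 95% intervals as bars, for Hlf and Mecom positive barcodes, Flt3 positive progenitors, Gata1 positive progenitors and mature neutrophils. Meis1, Angpt1 and Adgrl4 lie near or above 90% in the Hlf and Mecom positive barcodes and below 3% in the neutrophils. Kit in the progenitors and neutrophils and Gata1 in the Gata1 positive progenitors were fixed by the choice of those sets.

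For comparison, Flt3 positive progenitors were kept barcodes with a Flt3 and a Kit UMI under the same granule limit (143 in Ctrl, 33 in cKO). Gata1 positive progenitors were those with a Gata1 and a Kit UMI and no Flt3 UMI (241 in Ctrl, 65 in cKO). Both excluded the Hlf and Mecom positive barcodes. Meis1 was detected in 55.9% and 57.6% of the Flt3 positive progenitors, and in 34.9% and 46.2% of the Gata1 positive progenitors, in Ctrl and cKO. Among the listed stem cell markers, 4 had at least 100 CPM in the Hlf and Mecom positive barcodes or the Flt3 positive progenitors of each library. Of these, 3 were at least 2-fold higher than in the Flt3 positive progenitors in both libraries, against 1.44% of 1455 genes.

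The rarer stem cell marker Procr was also more frequent in the Hlf and Mecom positive barcodes than in both progenitor sets. Procr, the endothelial protein C receptor used to sort HSCs, was detected in 21.9% (15.1 to 30.04) in Ctrl and 41.7% (27.6 to 56.8) in cKO, against 4.20% and 15.2% of the Flt3 positive progenitors. In cKO, with 33 Flt3 positive progenitors, the intervals overlap. No Gata1 positive progenitor held a Procr UMI, which allows a share of up to 1.24% in Ctrl and 4.62% in cKO (3 barcodes of each set). Esam, an adhesion molecule, was detected in 20.3% and 39.6%, and Ly6a, which encodes the SCA-1 antigen, in 48.4% and 58.3%. The sorting markers Slamf1 (10.2% and 10.4%), Fgd5 (5.47% and 2.08%) and Hoxb5 (3.91% and 4.17%) were captured in few barcodes at this depth. Gata2 and Mllt3 did not separate the sets in the same way, since they were detected in 56.8% and 62.2% of the Gata1 positive progenitors in Ctrl, against 68.8% and 44.5% of the Hlf and Mecom positive barcodes. Progenitor genes were present alongside the stem cell markers, with Cd34 in 82.8% and 85.4%, Flt3 in 54.7% and 52.1%, Cd48 in 40.6% and 52.1%, and the lymphoid gene Dntt in 20.3% and 16.7%. In the mature neutrophils Flt3 was detected in 0.856% and 0.478%, and Cd48 in 3.62% and 3.49%. After thinning to 2000 UMIs, Flt3 was expected in 23.1% and 16.9% of the Hlf and Mecom positive barcodes and Cd48 in 11.1% and 17.6%, against 0.149% to 1.62% of the neutrophils. HSCs are sorted as negative for both proteins, and a barcode without a UMI may still come from a cell that expresses the gene.

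The choice rested on few UMIs. The median barcode held 4 Hlf UMIs (1 to 19) and 1 Mecom UMI (1 to 7) in Ctrl, and 3 Hlf UMIs (1 to 12) and 2 Mecom UMIs (1 to 6) in cKO. In Ctrl 12 barcodes, and in cKO 9, held 1 UMI of each gene and so lay at the edge of the rule. Just inside the granule limit the highest share was 0.497% in Ctrl and 0.459% in cKO. Just outside it the lowest share was 0.514% and 1.49%, among 15 Ctrl and 6 cKO barcodes that had both genes but exceeded the limit. Below 2000 UMIs no barcode met the other criteria. Under the same granule limit, barcodes with Hlf but no Mecom UMI numbered 307 in Ctrl and 155 in cKO, and 34.2% and 19.4% of them had a Meis1 UMI. Barcodes with Mecom but no Hlf UMI numbered 77 and 10, and 64.9% and 60% of them had a Meis1 UMI.

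The Hlf and Mecom positive barcodes were not uniform. A small group was rich in Pf4, which encodes platelet factor 4 of megakaryocytes and platelets. With at least 10 Pf4 UMIs, a limit chosen after seeing the data, it held 8 Ctrl and 3 cKO barcodes, 6.25% of the set in each library. Their Pf4 UMIs were 1231, 1118, 610, 527, 210, 125, 36 and 17 in Ctrl, and 883, 422 and 90 in cKO. No other Hlf and Mecom positive barcode held more than 9 Pf4 UMIs in Ctrl or more than 1 in cKO. The Pf4-rich barcodes held 98.8% and 99.9% of all Pf4 UMIs of the set, 91.0% and 84.9% of those of Vwf (von Willebrand factor), and 79.7% and 69.1% of those of Itga2b, the integrin CD41. They were deep, with medians of 38538 and 27385 UMIs, and so gave 18.9% and 13.5% of all UMIs of the set. Every one of them had a Meis1 UMI, and none had a Procr UMI. Outside the set, 51 Ctrl and 9 cKO kept barcodes held at least 10 Pf4 UMIs.

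A further group carried much neutrophil RNA. In the median Hlf and Mecom positive barcode, 12 genes of the neutrophil lineage gave 1.14% of UMIs in Ctrl and 0.803% in cKO. S100a8, S100a9, Ngp, Camp and Retnlg were among them. Over 5% came from these genes in 7 Ctrl barcodes (5.02% to 35.4%) and 2 cKO barcodes (8.96% to 21.3%), whereas the remaining barcodes reached at most 2.02% and 3.65%. This limit was also chosen after seeing the data. Of these barcodes, 6 of 7 and 2 of 2 had a Meis1 UMI. The 2 cKO barcodes held 69.0% of all Retnlg UMIs of the cKO set, whereas the 7 Ctrl barcodes held 10.7% of those of the Ctrl set. Doublets were not removed here and no doublet caller was run, and whether these barcodes held more than 1 cell was not tested. In Ctrl 1 barcode belonged to both groups. Without both groups, 114 Ctrl and 43 cKO barcodes remained, called the reduced set below, and its values are given beside results that rest on these groups. The UMIs of Pf4 and of the neutrophil genes chose the barcodes left out, and the other kept barcodes were not filtered in this way, so values of these genes in the reduced set follow in part from the limits themselves.

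**Figure D2:**
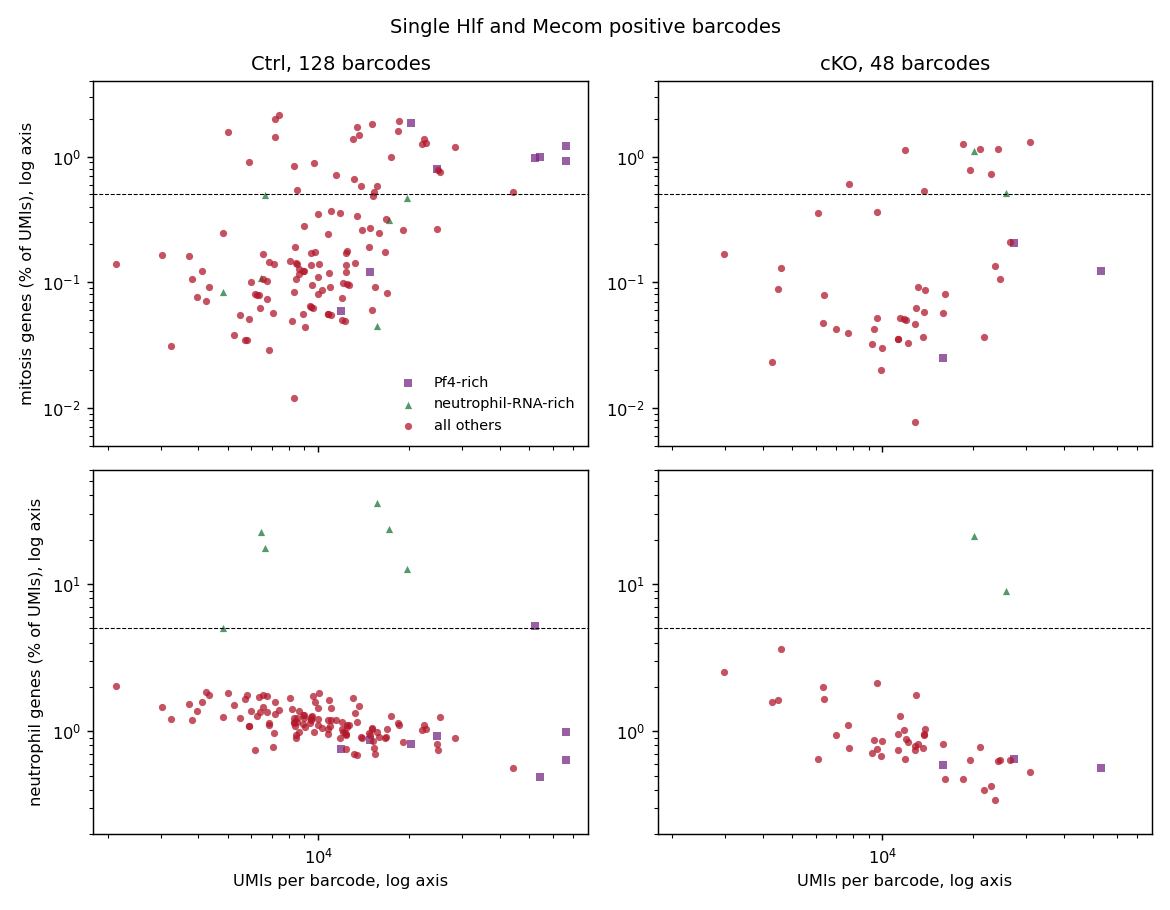
Each point is 1 Hlf and Mecom positive barcode in Ctrl (left, 128) or cKO (right, 48), placed by its UMIs (x axis, log) and by the percentage of its UMIs from mitosis genes (upper panels, log) or neutrophil genes (lower panels, log). Dashed lines mark 0.5% and 5%, squares are Pf4-rich and triangles neutrophil-RNA-rich barcodes, and the Ctrl barcode in both groups is drawn as a square. The mitosis share runs from 0.012% to 2.15% in Ctrl with most barcodes below the line, and the neutrophil-RNA-rich barcodes stand apart from the rest.

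Most Hlf and Mecom positive barcodes had less than 0.5% of their UMIs from mitosis genes. Over 36 genes of the mitotic phase, such as Mki67, Top2a, Cenpf and Cenpe, the share of a barcode's UMIs had a median of 0.142% in Ctrl (0.0121% to 2.15%) and 0.0795% in cKO (0.00778% to 1.31%). At least 0.5%, a limit set on this distribution, was reached by 33 of 128 Ctrl barcodes (25.8%, 18.5 to 34.3) and 11 of 48 cKO barcodes (22.9%, 12.0 to 37.3), with intervals that overlap. Near the limit, between 0.4% and 0.6%, lay 8 Ctrl and 2 cKO barcodes. In the reduced set the shares were 23.7% and 20.9%. Among the other kept barcodes the shares were 28.2% in Ctrl and 19.996% in cKO, and among the Flt3 positive progenitors 35.0% and 21.2%. Barcodes above the limit were deeper, with medians of 15626 and 20096 UMIs against 9434 and 11795 UMIs below it.

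Within the reduced set, barcodes with a Flt3 UMI (66 in Ctrl, 24 in cKO) and without one (48 and 19) had similar depths, with medians of 10021.5 and 12888 UMIs against 9491 and 11795 UMIs. This split was also chosen after seeing the data. Cd34 was 442 CPM with Flt3 and 256 CPM without it in Ctrl, and 407 and 189 CPM in cKO. Dntt, the terminal transferase of early lymphoid cells, was 79.6 against 16.1 CPM in Ctrl and 99.6 against 16.8 CPM in cKO. Its share of barcodes was 30.3% (19.6 to 42.9) against 8.33% (2.32 to 19.98) in Ctrl and 20.8% (7.13 to 42.2) against 15.8% (3.38 to 39.6) in cKO, with intervals that overlap in both libraries. Itga2b, Meis1 and Vwf had lower levels with Flt3 than without it in both libraries. Itga2b was 36.5 against 92.8 CPM in Ctrl and 72.4 against 126 CPM in cKO. Meis1 was 240.0 against 321 CPM in Ctrl and 199 against 265 CPM in cKO. Vwf was detected in 1 of 66 barcodes with Flt3 and 7 of 48 without it in Ctrl, and in 0 of 24 (which allows up to 12.5% by the limit of 3 counts and 14.2% by the exact interval) and 5 of 19 in cKO. The intervals of the shares of barcodes overlapped for Meis1 and Vwf in both libraries and for Cd34 and Itga2b in cKO, and they were separate for Cd34 (95.5% and 72.9%) and Itga2b (24.2% and 54.2%) in Ctrl. Procr did not follow this split, with 22.2 against 24.2 CPM in Ctrl and 42.2 against 37.8 CPM in cKO.

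The Hlf and Mecom positive barcodes were next compared with all other kept barcodes, leaving out the genes used to choose them. Of 1555 genes with at least 100 CPM in 1 of the 2 sets in each library, 137 (8.81%) were at least 2-fold higher in both libraries and 174 (11.2%) were at least 2-fold lower in both. Median-of-ratios scaling, which lowered every ratio by a shift of -0.43 in Ctrl and -0.82 in cKO, gave 58 higher and 269 lower. In the reduced set 176 (11.2%) of 1568 genes were higher and 173 (11.0%) were lower, and 124 and 165 genes were shared with the full set. Mature neutrophils were 20.9% of the kept barcodes in Ctrl and 46.4% in cKO, so the makeup of the comparison set differed between the libraries. The median ratio over the 1555 genes was 0.27 in Ctrl and 0.64 in cKO.

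**Figure D3:**
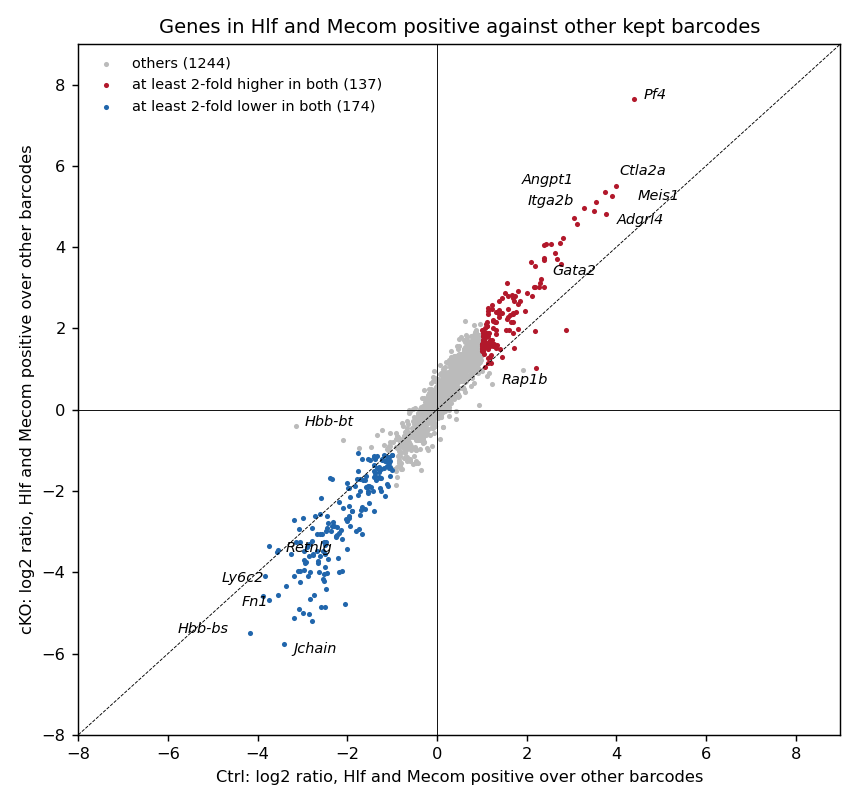
Log2 ratio of CPM in Hlf and Mecom positive over other kept barcodes in Ctrl (x axis) and in cKO (y axis), 1 point per gene with at least 100 CPM, with the genes used by the rule left out. Red marks the 137 genes at least 2-fold higher and blue the 174 at least 2-fold lower in both libraries, the dashed line marks equal ratios, and Pf4 stands highest, with 98.8% and 99.9% of its UMIs in Pf4-rich barcodes.

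Stem cell transcription factors were higher as a group. Of 22 listed factors other than Hlf and Mecom with at least 10 UMIs, 22 had a higher level than in the other kept barcodes in both libraries, with a median log2 ratio of 2.11 in Ctrl and 3.04 in cKO. The medians over all 10548 genes with at least 10 UMIs were 0.43 and 0.84. Meis1 had a log2 ratio of 3.90 in Ctrl (254 against 17.0 CPM) and 5.26 in cKO (229 against 5.996 CPM). Gata2, needed for HSC maintenance, had ratios of 2.38 and 3.67, and Hoxa9, a homeobox gene of early progenitors, 2.80 and 3.42. Ikzf2, the Ikaros family member Helios, had ratios of 2.43 and 4.08. Erg, Lmo2, Etv6 and Tal1, all factors of early hematopoiesis, had ratios between 1.37 and 3.11. Lyl1 and Fli1 were the least apart, with ratios of 0.53 and 1.15 for Lyl1 and 0.80 and 1.08 for Fli1.

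Receptors, ligands and adhesion molecules of HSCs were less uniform. Of 24 listed genes, 18 were higher in Ctrl and 21 in cKO. Their median log2 ratios were 1.51 and 2.24, against 0.43 and 0.84 over all 10548 genes. Of the 10 listed genes at the 100 CPM floor, 5 were at least 2-fold higher in both libraries and 1 was lower, against 8.81% and 11.2% of all 1555 genes. The list gave 0.325% of UMIs in Ctrl and 0.317% in cKO. In the Flt3 positive progenitors it gave a similar 0.315% and 0.291%. Angpt1 had log2 ratios of 3.75 (351 against 26.0 CPM) and 5.37 (263 against 6.37 CPM). Adgrl4 had ratios of 3.77 and 4.83. Adgrg1, the adhesion receptor GPR56, was among the most abundant, at 489 CPM in Ctrl and 576 CPM in cKO, with ratios of 3.06 and 4.72. Cd27, Eng (endoglin) and Itga6 (integrin α6) had ratios between 2.00 and 3.74. The chemokine receptor Cxcr4 was lower, at 38.9 against 97.6 CPM in Ctrl and 43.6 against 101.96 CPM in cKO, as was the interferon-γ receptor gene Ifngr1, with ratios of -1.41 and -1.37. Further genes near the top of the ranking were Ctla2a, an inhibitor of cysteine proteases (3.98 and 5.51), Nrgn, which encodes the calmodulin-binding protein neurogranin (3.497 and 4.88), Rgs1, a regulator of G protein signalling (3.28 and 4.97), and Spns2, a sphingosine-1-phosphate transporter (3.12 and 4.56).

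Pf4 had the highest ratios of all, 4.40 in Ctrl and 7.66 in cKO, carried by the Pf4-rich barcodes. Itga2b kept higher levels without the rich groups, with ratios of 3.54 and 5.12 in the full set and 1.59 and 3.75 in the reduced set. Immediate early genes, which are transcribed within minutes of a stimulus or of cell handling, gave 0.402% of UMIs in Ctrl and 0.362% in cKO, against 0.185% and 0.139% in the other kept barcodes and 0.261% and 0.252% in the Flt3 positive progenitors. Jun was 1010 and 819 CPM, Fosb 606 and 368 CPM and Egr1 331 and 238 CPM. Whether they were transcribed in the animal or during preparation was not tested.

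Genes with the lowest ratios included Hbb-bs (adult β-globin, -4.17 in Ctrl and -5.48 in cKO), Retnlg (-3.57 and -3.501, and -3.53 and -5.03 in the reduced set), the plasma cell gene Jchain (-3.41 and -5.77), the monocyte gene Ly6c2 (-3.36 and -4.33) and the granulocyte-monocyte progenitor gene Ms4a3 (-3.76 and -3.35). Fn1, which encodes fibronectin, held 18 UMIs in Ctrl and 0 in cKO. The other 4 of the lowest 10 were Clec4a2, Trem3, F13a1 and Ighg2c. Myeloid genes as a list gave 0.0608% and 0.0755% of UMIs, against 0.224% and 0.252% in the other kept barcodes. All 12 neutrophil genes were at least 2-fold lower in both libraries, against 11.2% of all 1555 genes. Mature neutrophils made up 20.9% of the kept barcodes in Ctrl and 46.4% in cKO. DNA replication genes gave 0.346% and 0.335%, against 0.340% and 0.214%.

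Against the Flt3 positive progenitors, the nearer population, far fewer genes were apart. Of 1455 genes at the same floor, 21 (1.44%) were at least 2-fold higher and 21 (1.44%) at least 2-fold lower in both libraries. Flt3 and Kit, which chose the Flt3 positive progenitors, were not left out, so their ratios follow in part from that choice. The higher genes included Gata2 (log2 ratios of 1.97 and 1.66), Rgs1 (1.63 and 1.25), Meis1 (1.59 and 1.58), Itga6 (1.38 and 1.74), Apoe, which encodes apolipoprotein E (1.38 and 1.81), and the adaptor gene Fyb (1.43 and 1.48). The small GTPase gene Rap1b was higher in the full set, at 1.86 and 1.51, but not in the reduced set, at 0.28 and -0.28. Ratios of the reduced set were 1.84 and 1.84 for Gata2 and 1.59 and 2.07 for Apoe.

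The lower genes included those of dendritic cells and antigen presentation. Irf8, a transcription factor of dendritic cells and monocytes, had log2 ratios of -4.45 and -4.24. The class II genes H2-Aa (-3.25 and -3.58), H2-Ab1 (-2.54 and -3.07) and Cd74 (-3.31 and -4.79) followed. Id2 (-3.83 and -3.95) and Cst3 (-2.23 and -2.18) were lower as well. Dntt was lower at 43.2 against 314 CPM in Ctrl and 52.0 against 229 CPM in cKO. Dendritic cell genes were thus present in the comparison set, and the share of such cells in it was not estimated. Plasma and B cell genes gave 0.136% of its UMIs in Ctrl and 1.10% in cKO, where Igkc was 10252 CPM against 499 CPM in Ctrl, and their part in these ratios was not tested.

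Hlf and Mecom positive barcodes made up 1.77% (1.47 to 2.10) of the kept barcodes in Ctrl and 1.06% (0.786 to 1.41) in cKO. These intervals do not overlap. As a share of kept barcodes with a Kit UMI under the granule limit, they were 10.1% (120 of 1189, 8.44 to 11.9) and 8.79% (40 of 455, 6.35 to 11.8), with intervals that overlap. The cKO library also held more neutrophils among its kept barcodes (2091 against 1518 by the definition above). After thinning to 2000 UMIs, 0.392% of the kept barcodes in Ctrl and 0.1797% in cKO were expected to meet the rule. With a floor of 5000 UMIs the shares were 2.68% in Ctrl and 1.18% in cKO, further apart than in the main analysis. Without the Pf4-rich and neutrophil-RNA-rich barcodes the shares were 1.57% and 0.954%. Each mixture was made with a fixed part of c-Kit+ cells, and the yield of the enrichment and a change in the animals cannot be told apart in 1 library per genotype. From bone marrow of replicate mice, the paper reports unaffected percentages and numbers of HSCs and progenitors in cKO. Those cells were defined otherwise than by Hlf and Mecom UMIs.

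The libraries were then compared within the Hlf and Mecom positive barcodes, to ask which transcripts differed between the Ctrl and cKO mice in these barcodes. Of 1728 genes with at least 100 CPM in 1 library, 14 (0.81%) were at least 2-fold higher in cKO and 31 (1.79%) at least 2-fold lower. In the reduced set 11 (0.631%) and 29 (1.66%) of 1744 genes passed the same fold, and 7 and 18 of them were shared with the full set. In the other kept barcodes 35 (2.38%) of 1468 genes were at least 2-fold higher and 101 (6.88%) lower. The same fold in the same direction was also reached there by 6 of the 14 higher and 16 of the 31 lower genes. The median log2 ratio over the 1728 genes was -0.08, and median-of-ratios scaling moved all ratios by 0.05. Over all 10548 genes with at least 10 UMIs the median was -0.10, so most genes had lower levels in cKO. The counts of listed genes higher in cKO given below are to be read beside this. The plot of the genes that differed most shows each ratio beside those of the reduced set and of the other kept barcodes.

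**Figure D4:**
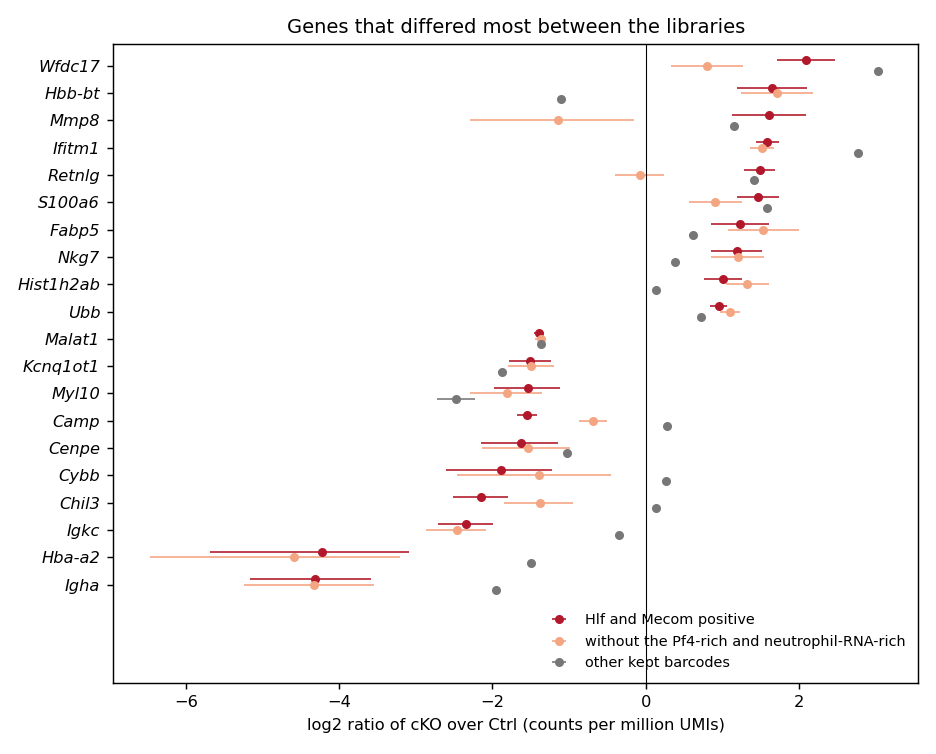
Log2 ratio of cKO over Ctrl (x axis, from CPM) for the 10 highest and 10 lowest genes of the Hlf and Mecom positive barcodes (y axis), ranked by the interval bound nearest 0. Dark red is the full set, light red the set without Pf4-rich and neutrophil-RNA-rich barcodes and grey the other kept barcodes, with exact 95% intervals for counting error, and Mmp8 and Retnlg lose their higher level in the reduced set.

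Ifitm1, an interferon-induced membrane protein, was among the genes at least 2-fold higher in cKO. It lies on chromosome 7 from 140967221 to 140969825 on the plus strand. Its level was 400.2 CPM in Ctrl and 1202 CPM in cKO, a log2 ratio of 1.59 (1.44 to 1.74), and 1.52 in the reduced set. The median barcode held 4.5 UMIs in Ctrl (0 to 21) and 19 in cKO (up to 44), and 93.0% and 100% of barcodes had at least 1. The ratio was 2.77 in the other kept barcodes, where the levels were 86.4 and 589.6 CPM, so a higher level in cKO was not limited to these cells. Listed interferon-stimulated genes did not share it. They gave 0.110% of UMIs in Ctrl and 0.103% in cKO, a log2 ratio of -0.10 (-0.23 to 0.02) and -0.19 (-0.33 to -0.05) in the reduced set, and 14 of 33 genes were higher in cKO.

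Other genes with a higher level in cKO kept it in the reduced set. Fabp5, a fatty acid-binding protein, was 74.2 CPM in Ctrl and 174 CPM in cKO, with a log2 ratio of 1.23 (0.86 to 1.60), detected in 35.9% and 70.8% of barcodes. Nkg7, a granule protein of cytotoxic cells, was 95.5 and 218 CPM, with a ratio of 1.19 (0.86 to 1.52), while the T cell gene Cd3e had no UMI in either library. The ubiquitin gene Ubb was 800.4 and 1549 CPM (0.95, 0.84 to 1.07), and its ratio was 0.72 in the other kept barcodes. The histone gene Hist1h2ab was 178 and 357 CPM (1.01, 0.76 to 1.25), with 20.1% of its cKO UMIs in 1 barcode. Hbb-bt, a β-globin gene, was 43.8 and 138 CPM (1.65, 1.20 to 2.11), with 30.6% of its cKO UMIs in 1 barcode and a similar share of barcodes with a UMI, 37.5% and 35.4%. With a floor of 5000 UMIs its ratio was 0.72, under 2-fold.

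Several higher genes rested on the neutrophil-RNA-rich barcodes. Retnlg (217 and 607 CPM) had a log2 ratio of 1.49 in the full set and -0.07 without the rich groups, and Mmp8 had 1.61 and -1.14. Wfdc17 had 2.09 and 0.81, with 56.6% of its cKO UMIs in 1 barcode, and S100a6 had 1.47 and 0.91. In the other kept barcodes Wfdc17 was 63.1 CPM in Ctrl and 518 CPM in cKO.

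The genes with the lowest ratios were abundant transcripts of other cells. Igha, the immunoglobulin A heavy chain of plasma cells, was 419 CPM in Ctrl and 21.1 CPM in cKO, a log2 ratio of -4.31 (-5.16 to -3.58), and was detected in 98.4% and 29.2% of barcodes. Igha UMIs were also present in 85.2% of the Ctrl neutrophils and 13.8% of the cKO neutrophils. Igkc had a ratio of -2.34 and Hba-a2, an α-globin gene, -4.22. Plasma and B cell genes as a list gave 0.114% of UMIs in Ctrl and 0.0198% in cKO. Of its 12 genes, 12 had a UMI in Ctrl and 7 in cKO, Igkc was the most abundant in both (854 and 73 UMIs), and Cd79a and Ebf1, which define B cells, were at 0 in cKO. Red cell genes gave 0.0364% and 0.0169%, led by Hba-a2 in Ctrl (259 of 598 UMIs) and Hbb-bt in cKO (98 of 120 UMIs). In the other kept barcodes the plasma and B cell list and the red cell list were also lower in cKO, with log2 ratios of -0.70 and -1.31. In the Flt3 positive progenitors the red cell list was lower (-3.02) and the plasma and B cell list higher (3.02). The part of both lists in other differences was not tested.

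The neutrophil list was lower in cKO in the Hlf and Mecom positive barcodes (log2 ratio -0.29, and -0.42 in the reduced set) and higher in the other kept barcodes (0.77), but its members differed. Of all 1728 genes at the floor, 0.81% were at least 2-fold higher in cKO and 1.79% lower. Of the 12 neutrophil genes 4 were higher in cKO, 3 were past 2-fold higher (Mmp9, Mmp8 and Retnlg) and 3 past 2-fold lower (Camp, Ngp and Ltf). All 3 of the higher genes had ratios below 0 in the reduced set. The list gave 2.05% of UMIs in Ctrl and 1.67% in cKO in the Hlf and Mecom positive barcodes, against 16.04% and 27.3% in the other kept barcodes. In the reduced set the shares were 1.11% and 0.829%. S100a9 was its most abundant gene, with 12184 of 33629 UMIs in Ctrl and 4830 of 11864 in cKO. Outside the list, Chil3 was 453 and 103 CPM (-2.14, -2.51 to -1.79) with -1.38 in the reduced set. Camp was 2266 and 779 CPM (-1.54, -1.67 to -1.41), with -0.69 in the reduced set. Cybb, the phagocyte oxidase subunit, had -1.88 in the full set and -1.39 in the reduced set.

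Among the lower genes that are not markers of mature cells, Malat1, a nuclear long noncoding RNA, was 8033 CPM in Ctrl and 3065 CPM in cKO, a log2 ratio of -1.39 (-1.46 to -1.32), and -1.37 in the other kept barcodes. Kcnq1ot1, an imprinted nuclear RNA, had -1.51 here and -1.87 in the other kept barcodes. Both nuclear RNAs were thus lower in cKO in these and in the other kept barcodes, and their part in the other differences was not tested. Myl10, a myosin light chain gene, was 215 CPM in Ctrl and 74.5 CPM in cKO, a ratio of -1.53 (-1.98 to -1.11), against 14.6 and 2.62 CPM in the other kept barcodes. The kinetochore gene Cenpe was 174 and 56.2 CPM, with a ratio of -1.63 (-2.15 to -1.15), and -1.53 in the reduced set. Mef2c, a transcription factor of lymphoid-biased progenitors, was 442 and 253 CPM, a ratio of -0.81 (-1.05 to -0.57).

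Relative to the difference in the other kept barcodes, the ratio stood highest for Pf4 (by 3.26), Hbb-bt (by 2.76), H2-Q6 (by 1.99), the urea transporter gene Slc14a1 (by 1.88) and Adgrg1 (by 1.66). In the Hlf and Mecom positive barcodes themselves the log2 ratios of Pf4, Slc14a1 and Adgrg1 were -0.28, -0.19 and 0.24, against -3.54, -2.07 and -1.42 in the other kept barcodes. The value of Pf4 rested on the 8 Ctrl and 3 cKO Pf4-rich barcodes. In the reduced set, where the limit on Pf4 left 45 Pf4 UMIs in Ctrl and 2 in cKO, no ratio of Pf4 is read. There Slc14a1 had -0.62 and Adgrg1 0.23. The difference between the sets stood lowest for Igha (by -2.37), Chil3 (by -2.27), Igkc (by -1.997), Camp (by -1.83) and Ngp (by -1.82).

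Stem cell genes are shown by list in the plot of gene lists. Without Hlf and Mecom, the transcription factors gave 0.281% of UMIs in Ctrl and 0.270% in cKO, a log2 ratio of -0.05 (-0.13 to 0.02), and 12 of 22 genes other than Hlf and Mecom were higher in cKO, with none past 2-fold at the floor. Meis1 was 254 and 229 CPM (-0.15, -0.42 to 0.11), Erg 117 and 122 CPM (0.07, -0.32 to 0.44), Gata2 179 and 157 CPM (-0.19, -0.52 to 0.13) and Hoxa9 84.5 and 87.1 CPM (0.04, -0.41 to 0.49). Runx1 was 200.1 and 157 CPM (-0.35, -0.67 to -0.03). Hlf itself was 406 CPM in Ctrl and 269.8 CPM in cKO, and Mecom 156 and 143 CPM, which are descriptions of genes that the rule used. Stem cell markers without Hlf and Mecom gave 0.149% and 0.129%, a ratio of -0.21 (-0.32 to -0.10), and 3 of 12 genes with at least 10 UMIs were higher. The receptors gave 0.325% and 0.317%, a ratio of -0.04 (-0.11 to 0.03).

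**Figure D5:**
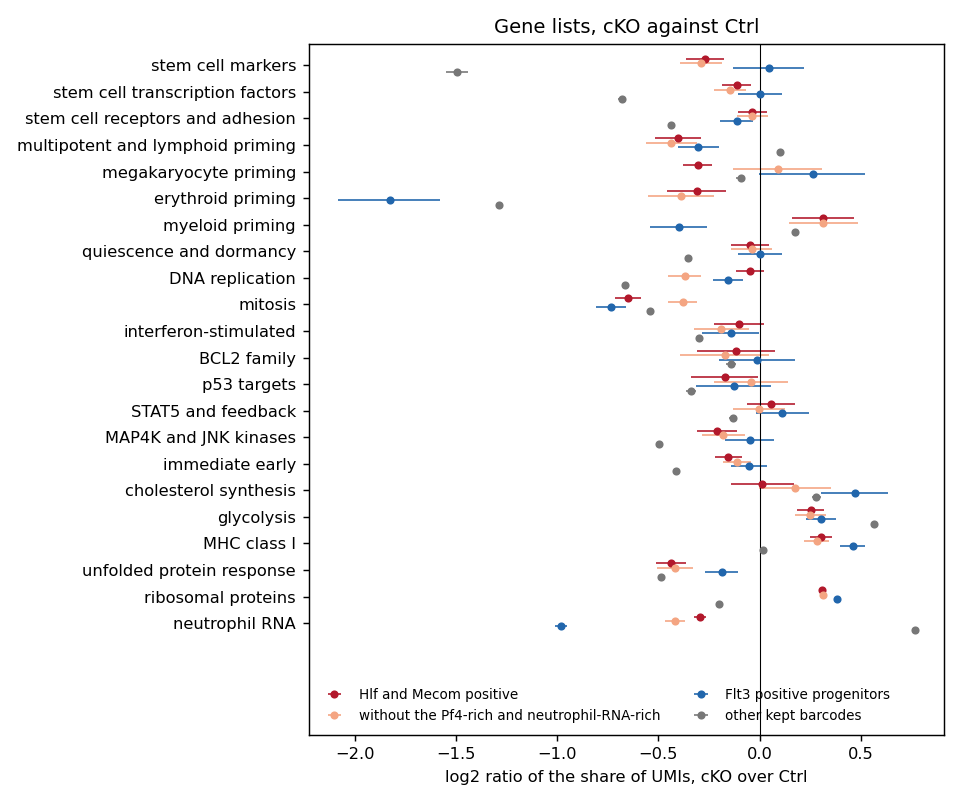
Log2 ratio of cKO over Ctrl of the share of UMIs (x axis) for 22 gene lists (y axis), with exact 95% intervals for counting error, in the Hlf and Mecom positive barcodes, in the same set without Pf4-rich and neutrophil-RNA-rich barcodes, in Flt3 positive progenitors and in the other kept barcodes. In the Hlf and Mecom positive barcodes stem cell markers lie at -0.27 and stem cell transcription factors at -0.11, sums that include the rule genes Hlf and Mecom (-0.21 and -0.05 without them), receptors lie at -0.04, ribosomal proteins and MHC class I lie above 0 there, and mitosis and the unfolded protein response lie below 0 in every set shown.

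Of the 24 receptor and adhesion genes, 6 had intervals that left out 0, with 3 higher (Adgrg1, Eng and Esam) and 3 lower (Kit, Itga4 and Itgb1) in cKO. Over all 10548 genes with at least 10 UMIs, 6.78% had intervals above 0 and 10.5% below 0. Procr was 20.7 CPM in Ctrl and 33.7 CPM in cKO (34 and 24 UMIs), a log2 ratio of 0.71 whose interval of -0.11 to 1.502 includes 0. After thinning, it was expected in 5.99% and 8.24% of barcodes. Esam was 26.2 and 46.4 CPM (0.83, 0.13 to 1.51). Outside that list, Cd48 was 59.0 and 105 CPM (0.84, 0.38 to 1.29), Ctla2a 355 and 559 CPM (0.66, 0.47 to 0.84) and Apoe 141 and 275 CPM (0.97, 0.68 to 1.25). Kit was 246 and 188 CPM (-0.39, -0.68 to -0.10) and Itga4, the integrin α4 used in homing, 202 and 131 CPM (-0.63, -0.98 to -0.29). These intervals count UMIs and not mice, so none of them shows a difference between the genotypes.

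Genes of multipotent and lymphoid progenitors gave 0.152% of UMIs in Ctrl and 0.115% in cKO, a log2 ratio of -0.40 (-0.52 to -0.29), and 2 of 10 genes were higher in cKO. Flt3 was 129.5 and 85.7 CPM (-0.60, -1.03 to -0.18) and Tcf4 195 and 131 CPM (-0.58, -0.93 to -0.24), whereas Dntt was 43.2 and 52.0 CPM (0.27, -0.35 to 0.86). Megakaryocyte genes had a ratio of -0.30 in the full set and 0.09 (-0.13 to 0.31) in the reduced set, whose limit used Pf4, a member of this list at 2385 and 1963 CPM in the full set. Myeloid genes had a ratio of 0.31 (0.16 to 0.47), carried by Cd63 (159 and 279.7 CPM), while 5 of 11 genes were higher.

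Mitosis genes gave 0.561% of UMIs in Ctrl and 0.358% in cKO, a log2 ratio of -0.65 (-0.71 to -0.59), and 2 of 36 genes were higher in cKO. The ratio was -0.38 in the reduced set, and 6 of 8 Pf4-rich Ctrl barcodes but 0 of 3 in cKO lay above the mitosis limit. Mki67 was 779 and 339 CPM (-1.20, -1.41 to -1.001), with -0.75 in the reduced set and -1.001 in the other kept barcodes. Top2a was 758 and 498 CPM (-0.61, -0.78 to -0.44). DNA replication genes had a ratio of -0.05 in the full set and -0.37 in the reduced set, and Pcna was 377 and 326 CPM (-0.21, -0.43 to 0.01). The quiescence list had a ratio of -0.05 (-0.14 to 0.04), with Cdkn1b at 60.8 and 70.3 CPM, Txnip at 192 and 249 CPM (0.38, 0.10 to 0.65) and Foxo3 at 74.8 and 43.6 CPM (-0.78, -1.40 to -0.20).

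Ribosomal protein genes gave 21.1% of UMIs in Ctrl and 26.1% in cKO, a log2 ratio of 0.31, and 75 of 77 genes were higher in cKO, none of 76 at the floor past 2-fold. The list was added after seeing the data. The median barcode held 22.1% in Ctrl (9.16% to 29.6%) and 27.3% in cKO (8.39% to 34.4%), so the groups overlapped. The Flt3 positive progenitors had a similar ratio, 0.38, and the other kept barcodes went the other way, from 15.7% to 13.7%. Genes of antigen presentation by MHC class I gave 0.460% and 0.567%, a ratio of 0.30 (0.25 to 0.36), and 12 of 15 genes were higher in cKO. B2m, the shared light chain, was 1632 and 1932 CPM (0.24, 0.15 to 0.34), H2-K1 923 and 1157 CPM (0.33, 0.20 to 0.45), and the immunoproteasome gene Psmb10 85.1 and 149 CPM (0.81, 0.43 to 1.18). The peptide transporter gene Tap2 was lower, at 179 and 138 CPM (-0.38, -0.72 to -0.04). The ratio of the list was 0.46 in the Flt3 positive progenitors and 0.02 in the other kept barcodes. Over all 10548 genes with at least 10 UMIs the median ratio was -0.10.

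Genes of the unfolded protein response gave 0.385% and 0.284% of UMIs, a log2 ratio of -0.44 (-0.51 to -0.37), with -0.49 in the other kept barcodes. The chaperone gene Hsp90b1 was 633 and 316 CPM (-1.002, -1.22 to -0.79) and Canx (calnexin) 519 and 315 CPM (-0.72, -0.94 to -0.51). Glycolysis genes had a ratio of 0.25 (0.18 to 0.32), with 13 of 19 genes higher, led by Gapdh at 855 and 1148 CPM. That ratio was 0.57 in the other kept barcodes. Mitochondrial mRNA was close to equal, at 2.32% and 2.26%, whereas it went from 1.88% to 1.28% in the other kept barcodes.

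The pathways around MAP4K4 were also examined. Of 18 listed MAP4K and JNK pathway genes 5 were higher in cKO, and the list had a log2 ratio of -0.21 (-0.31 to -0.11), with Jun, which is its most abundant member, at 1010 and 819 CPM (-0.30, -0.44 to -0.16). The MAP4K family members Mink1 (35.9 and 40.8 CPM) and Map4k1 (62.0 and 60.4 CPM) had intervals that include 0 (-0.51 to 0.85 and -0.59 to 0.49), and Tnik was 54.1 and 28.1 CPM (-0.95, -1.72 to -0.23). The STAT5 list had a ratio of 0.06 (-0.06 to 0.18). Stat5a was 49.9 and 80.1 CPM (0.68, 0.17 to 1.19), Stat5b 73.0 and 67.5 CPM (-0.11, -0.63 to 0.38), and the STAT5 target Pim1 331 and 312 CPM (-0.08, -0.32 to 0.14). Pim2, a related kinase, was 9.73 CPM in Ctrl (16 UMIs, in 13 barcodes) and 50.6 CPM in cKO (36 UMIs, in 21 barcodes), a ratio of 2.38 (1.49 to 3.33), and 2.15 in the reduced set. It lay below the 100 CPM floor. The BCL2 family had a ratio of -0.11 (-0.31 to 0.08), with Mcl1 at 124 and 114 CPM and Bcl2 at 110.1 and 91.4 CPM, and p53 targets had -0.17 (-0.34 to -0.01), and -0.04 (-0.22 to 0.14) in the reduced set.

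Among immediate early genes, members went both ways, with 8 of 18 higher in cKO and a list ratio of -0.15 (-0.22 to -0.09). Junb was 149 and 243 CPM (0.71, 0.42 to 0.99) and Ier2 172 and 305 CPM (0.83, 0.57 to 1.09), whereas Fosb was 606 and 368 CPM (-0.72, -0.92 to -0.52), Jund 202 and 111 CPM (-0.86, -1.24 to -0.50) and Klf6 259 and 141 CPM (-0.88, -1.21 to -0.57). Fos was 595 and 589 CPM (-0.02, -0.18 to 0.15).

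Markers of further cell types gave few UMIs in these barcodes, but some gave a larger share than in the other kept barcodes. Endothelial genes gave 0.00803% of UMIs in Ctrl and 0.00675% in cKO, against 0.00338% and 0.00157%. Stromal genes gave 0.0026% and 0.0035%, against 0.00069% and 0.00027%. Plasmacytoid dendritic cell genes gave 0.0189% and 0.0188%, against 0.0166% and 0.0080%. The monocyte and macrophage, T and NK cell, and mast cell and basophil lists gave smaller shares. Endothelial genes gave 132 UMIs in Ctrl and 48 in cKO, led by Pecam1 (98 and 33 UMIs), which hematopoietic cells also express, and Cdh5, which defines endothelium, had no UMI in either library (0 of 128 and 0 of 48 barcodes, which allows up to 2.34% and 6.25% of barcodes with a UMI and sets no limit on cells that express the gene). Stromal genes gave 43 and 25 UMIs, of which Pdgfrb held 32 and 20, and Cxcl12, Lepr and Kitl were at 0 in both. Monocyte and macrophage genes gave 325 and 70 UMIs, led by Ly6c2 (226 and 59 UMIs), with C1qa, C1qb and C1qc at 0 in cKO. T and NK cell genes gave 192 and 158 UMIs, almost all from Nkg7 (157 and 155). Genes of plasmacytoid dendritic cells gave 311 and 134 UMIs, led by Runx2 in Ctrl (158 UMIs) and Bst2 in cKO (80 UMIs), and those of mast cells and basophils 61 and 47 UMIs.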

How the data were processed

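For 1 Ctrl and 1 cKO library the authors deposited UMI counts, as whole numbers for each gene in each called barcode, from Cell Ranger 5.0.0 on GRCm38 (mm10) with no scaling. Of 32285 gene identifiers, 32158 are in GENCODE vM21, 31436 of them with the same symbol, and coordinates come from that annotation. Filters, sums, CPM, exact Clopper-Pearson intervals for shares and exact binomial intervals for ratios were computed with numpy 2.4.6, pandas 2.3.3 and scipy 1.17.1 under Python 3.11.15, figures with matplotlib 3.10.9, and the calculations were tested on simulated data. Thinning to 2000 UMIs used expected values. No doublet caller was run, and cells were not tested as replicates.

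The members, gene lists and comparisons were chosen with earlier results of these data known. The genes named are those of the lists (a few per list), the 10 highest and 10 lowest against the other kept barcodes and between libraries, and the 5 highest and 5 lowest differences from the ratio in the other kept barcodes, all at 100 CPM and, between libraries, ranked by the interval bound nearest 0. The ranking against Flt3 positive progenitors, the Pf4-rich and neutrophil-RNA-rich groups, the ribosomal list, the mitosis limit and the split by Flt3 were added after seeing the data, and Pim2, Map4k4 relatives and other listed genes below 100 CPM are named as list members. The alternatives were other UMI, mitochondrial, granule and CPM limits, at least 3 Hlf and Mecom UMIs together, thinning, other denominators and comparison sets, median-of-ratios scaling and means of per-barcode proportions. Aldoa and Ddit3 have 2 identifiers each, and both were counted in their lists. Mx1 and Mx2 were not analysed here. The authors' integration, clustering and differential tests were not repeated. Some genes of the lists are counted in the totals but not reported by name here.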

Additional observations from a re-analysis of the deposited data

Results flagged for a closer look

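For 9 genes at the 100 CPM floor, the log2 ratio of cKO over Ctrl passed 2-fold in the Hlf and Mecom positive barcodes while the ratio in the other kept barcodes had the opposite sign. With 1 library per genotype, none of these differences was tested, and no cause was examined.

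Camp, Ngp and Ltf belong to the neutrophil list, and Chil3 and Cd177 are other genes that neutrophils express. The ratio was -2.14 for Chil3 against 0.13 in the other kept barcodes, -1.02 against 0.67 for Cd177, -1.54 against 0.29 for Camp, -1.08 against 0.74 for Ngp and -1.0001 against 0.52 for Ltf. Without the Pf4-rich and neutrophil-RNA-rich barcodes the ratios were -1.38, -0.96, -0.69, -0.85 and -1.34, so the sign was the same and Cd177, Camp and Ngp no longer passed 2-fold. Cybb, which phagocytes express, was -1.88 against 0.27, and -1.39 in the reduced set.

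The higher genes were Hbb-bt, at 1.65 against -1.10, 1.71 in the reduced set and 0.72 with a floor of 5000 UMIs, Tmem259, at 1.25 against -0.63 and 1.20 in the reduced set, and Lgals1, which encodes galectin-1, at 1.13 against -0.23 and 1.21 in the reduced set.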

How the results depend on the processing

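The share of Hlf and Mecom positive barcodes in Ctrl was 2.68% with a floor of 5000 UMIs and 1.46% with a floor of 1000 UMIs, 0.392% after thinning and 10.1% of Kit positive barcodes, and in cKO it was 1.18% and 0.898% with the same floors, 0.1797% after thinning and 8.79% of Kit positive barcodes. Against the other kept barcodes, the counts of 137 higher and 174 lower genes were 58 and 269 with median-of-ratios scaling and 48 and 94 at 200 CPM. They were 283 and 261 with per-barcode proportions. Against other sets they were 21 and 21 for Flt3 positive progenitors and 150 and 104 for Gata1 positive progenitors. Between the libraries, the counts of 14 higher and 31 lower genes were 6 and 15 at 200 CPM. They were 91 and 15 after subtracting the ratio of the other kept barcodes, and 7 and 33 without the neutrophil-RNA-rich barcodes. Beyond counting error, log2 ratios changed sign for Pf4 (0.040 with at least 3 Hlf and Mecom UMIs together, 0.27 with per-barcode proportions), Mmp8 (-1.18 without the neutrophil-RNA-rich barcodes, -1.14 without both groups), Retnlg (-0.054 and -0.074), the megakaryocyte list (0.17 with proportions, 0.080 without the Pf4-rich barcodes, 0.091 without both groups), the erythroid list (0.022 with proportions) and mitochondrial mRNA (0.049 with proportions, 0.0057 with median-of-ratios scaling). Within counting error, 8 values near 0 changed sign, for Slc14a1 (0.086 with proportions), the receptor list (0.0090 with median-of-ratios scaling), the STAT5 list (-0.0026 without both groups), cholesterol synthesis (-0.035 with at least 3 UMIs together), MHC class II (-0.083 with proportions, -0.0075 without the neutrophil-RNA-rich barcodes) and the plasmacytoid dendritic cell list (0.012 with the floor of 5000 UMIs, 0.039 with median-of-ratios scaling). The 2-fold limit was no longer passed by Hbb-bt (0.72) with the floor of 5000 UMIs, or by Nkg7 (0.96), Hist1h2ab (0.92) and Ngp (-0.93) with at least 3 UMIs together, or by S100a6 (0.89), Camp (-0.68), Ngp (-0.89), Wfdc17 (0.87), Hist1h2ab (0.97) and Retnlg without the neutrophil-RNA-rich barcodes. Of 208 values for 26 genes 172, and of 264 values for 33 lists 227, moved by less than counting error. Apart from the alternatives that leave barcodes out, the causes were not tested. No paired analysis was possible because there is 1 library per genotype and no test. Genes below about 100 CPM, such as Procr with 34 and 24 UMIs, are limited by depth.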

Other observations

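In the Hlf and Mecom positive barcodes, erythroid genes gave 0.0905% of UMIs in Ctrl and 0.0731% in cKO, a log2 ratio (cKO over Ctrl) of -0.31 (-0.46 to -0.16), and Car2, a carbonic anhydrase gene, held 833 of their 1488 UMIs in Ctrl and 263 of 520 in cKO. In the other kept barcodes the erythroid share was 0.207% in Ctrl and 0.0848% in cKO. Cholesterol synthesis genes had a log2 ratio of 0.01 (-0.14 to 0.17), and 12 of 23 genes were higher in cKO. MHC class II genes gave 0.0326% and 0.0332%, a ratio of 0.02 (-0.20 to 0.25), led by H2-DMa at 105 CPM in each library. Xist, which is expressed from the inactive X chromosome, held 3614 UMIs in Ctrl and 1467 in cKO, and Ddx3y, Eif2s3y, Kdm5d and Uty of the Y chromosome held none in either.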
